A study of Mus musculus with 11 samples.

Results

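The 9 genes described here encode proteins that moist epithelia such as those of the airway, gut and glands secrete or carry on their free surface, and they were chosen by their otosphere signal on these same arrays, seen in earlier work. They are Wfdc18, Wfdc2, Slpi, Msln, Sftpd, Lgals3, Clu, Muc1 and Pigr. Every probe whose accession maps to one of these symbols was taken, which gave 12 probes of the 55681 gene probes on the array, and 9 genes of the 20284 that could be named. Wfdc2, Sftpd and Pigr have 2 probes each, and the brighter one over the 11 arrays is the main probe. All 12 probes passed the filter on dim signals. Since the otosphere values chose the genes, otospheres against CSE and against ES cells is given for them as a description, without a test.

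Otospheres (OS) were spheres grown in suspension from dissociated cochlear cells of ICR mice at postnatal day 1, in serum-free medium with basic fibroblast growth factor and insulin-like growth factor-1, and passaged 1 time, with 4 to 5 days of culture on either side of the passage. Before RNA was taken the spheres went through a strainer to remove the large hollow ones. Cochlear sensory epithelium (CSE) was taken from ICR mice of the same age, without culture, and each preparation pooled the 20 cochleae of 10 mice. The embryonic stem cells (ES) were the lines G4-2 and D3 at passage 13, 1 array each, kept without feeder cells. RNA labelled with Cy3 was hybridised to 1-colour arrays, 6 for OS, 3 for CSE and 2 for ES, on 2 slides: OS1 to OS3, CSE1, CSE2 and ES1 lay on slide 1, and OS4 to OS6, CSE3 and ES2 on slide 2. OS1 with OS2 and OS4 with OS5 differed by less than the noise between spots of the same probe (0.951 and 0.436 times that noise, against at least 1.75 times for every other pair of a group), so each pair was averaged and counted as 1 sample. This left 4 OS, 3 CSE and 2 ES samples. The labels do not tie each array to a separate culture or litter, so the p-values measure the spread between these samples, which may be technical.

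The scanner's own flag placed 55.1% to 71.6% of gene spots well above background, depending on the array, and no spot was saturated. The markers fixed for the 3 groups mostly went with the labels. In CSE against OS, all 5 supporting cell markers and 4 of 5 hair cell markers were higher (limma, adjusted p under 0.05). The ES markers Pou5f1, Zfp42 and Dppa5a were higher in ES than in OS, with adjusted p-values of 5.2e-08, 0.000139 and 7.59e-08 (limma). The brightest Nanog probe did not follow them, at 8.56 and 8.31 in ES against 8.89 to 10.84 in OS. The paper lists Nanog among its genes higher only in ES, and only this Nanog probe was read here.

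Mucosal surfaces protect themselves with a fluid layer whose proteins bind microbes, block proteases and shield the membrane. Proteins with a whey acidic protein (WAP) domain, such as SLPI, inhibit serine proteases released by neutrophils or bacteria. Collectins and galectins bind sugars, membrane mucins form a coat on the cell surface, and the polymeric immunoglobulin receptor carries IgA across the epithelium. The cochlear duct is lined by an epithelium too, but one known for the tectorial membrane proteins it secretes rather than for mucus.

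The bases just before the start of 5 of these genes are shown here because they belong to genes with higher signal in every OS sample than in CSE, with Muc1 as a gene that overlapped, and because factors that bind such stretches were among the genes measured. They are from RefSeq, build GRCm38.p6, 250 bases each on the strand of the gene, and 6 of the 9 genes had an entry (all but Msln, Sftpd and Clu). Wfdc18 lies at chr11:83708754-83709003 (plus strand), Slpi at chr2:164356508-164356757 (minus strand), Lgals3 at chr14:47373610-47373859 (plus strand), Wfdc2 at chr2:164562465-164562714 (plus strand, the first of its entries) and Muc1 at chr3:89228806-89229055 (plus strand). Capitals mark matches on either strand to any of 6 patterns of letters. These were TATAAA, the AP-1 pattern TGANTCA, the C/EBP pattern TTGCNNAA, the STAT pattern TTCNNNGAA, the NF-kB pattern GGNNTTTCC and the GC box, written as GGGCGG, where N is any base and no match overlapped another.
Wfdc18: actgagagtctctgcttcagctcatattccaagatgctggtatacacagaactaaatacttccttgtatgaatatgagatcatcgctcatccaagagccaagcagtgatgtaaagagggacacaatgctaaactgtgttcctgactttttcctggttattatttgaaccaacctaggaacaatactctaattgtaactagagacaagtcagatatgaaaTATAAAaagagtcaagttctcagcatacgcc
Slpi: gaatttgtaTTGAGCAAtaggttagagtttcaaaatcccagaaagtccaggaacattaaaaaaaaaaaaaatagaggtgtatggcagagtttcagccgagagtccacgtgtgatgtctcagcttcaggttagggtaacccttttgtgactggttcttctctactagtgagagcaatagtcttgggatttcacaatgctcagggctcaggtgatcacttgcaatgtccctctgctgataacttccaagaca
Lgals3: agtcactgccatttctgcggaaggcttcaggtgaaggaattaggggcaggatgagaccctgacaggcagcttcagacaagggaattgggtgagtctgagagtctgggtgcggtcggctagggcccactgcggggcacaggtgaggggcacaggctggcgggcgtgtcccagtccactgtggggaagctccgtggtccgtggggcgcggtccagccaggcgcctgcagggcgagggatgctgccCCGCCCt
Wfdc2: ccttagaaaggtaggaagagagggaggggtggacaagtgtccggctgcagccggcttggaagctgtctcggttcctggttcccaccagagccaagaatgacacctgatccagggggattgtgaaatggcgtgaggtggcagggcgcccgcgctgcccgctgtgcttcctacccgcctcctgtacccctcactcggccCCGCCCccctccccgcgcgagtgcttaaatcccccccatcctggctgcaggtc
Muc1: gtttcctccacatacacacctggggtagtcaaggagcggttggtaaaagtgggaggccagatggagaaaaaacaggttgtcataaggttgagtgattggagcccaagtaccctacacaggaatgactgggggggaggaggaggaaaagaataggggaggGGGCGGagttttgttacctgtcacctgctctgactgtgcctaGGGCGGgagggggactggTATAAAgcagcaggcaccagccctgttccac
TATAAA began at position -31 from the start in both Wfdc18 and Muc1, and 12.4% of the 32851 listed promoters hold it. Slpi held 1 match to the C/EBP pattern, at position -241, against 9.56% of all promoters. Lgals3, Wfdc2 and Muc1 held the GC box, as did 32.7% of all promoters. None of the 6 genes with an entry held the AP-1, STAT or NF-kB letters in this window, which 6.75%, 7.02% and 4.93% of all promoters hold, and Pigr held none of the 6 patterns. Base composition differed widely among them, from 38.4% G and C in Wfdc18 and 42.0% in Slpi to 64.8% in Wfdc2 and 66.0% in Lgals3. A match is a description of letters and not a site in use.

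Seen together, 6 of the 9 genes were higher in every OS sample than in every CSE sample: Wfdc18, Wfdc2, Slpi, Msln, Sftpd and Lgals3. Across all 47996 kept probes, 10.8% had every OS sample above every CSE sample. Clu, Muc1 and the main probe of Pigr overlapped between OS and CSE, so these probes do not show a gain over the tissue of origin. The dimmer Pigr probe did not overlap, with every OS sample above every CSE sample. Against ES, 8 of the 9 genes, all but Muc1, were higher in every OS sample, where 20.7% of all kept probes were. The median difference over the 9 genes was 7.53 on the log2 scale for OS minus CSE and 4.68 for OS minus ES, while the median of OS minus CSE over all kept probes was 0.02. Because the genes were picked for their OS signal, nothing is read from these counts. In bulk RNA, more cells of a type and more RNA per cell cannot be told apart.

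**Figure D1:**
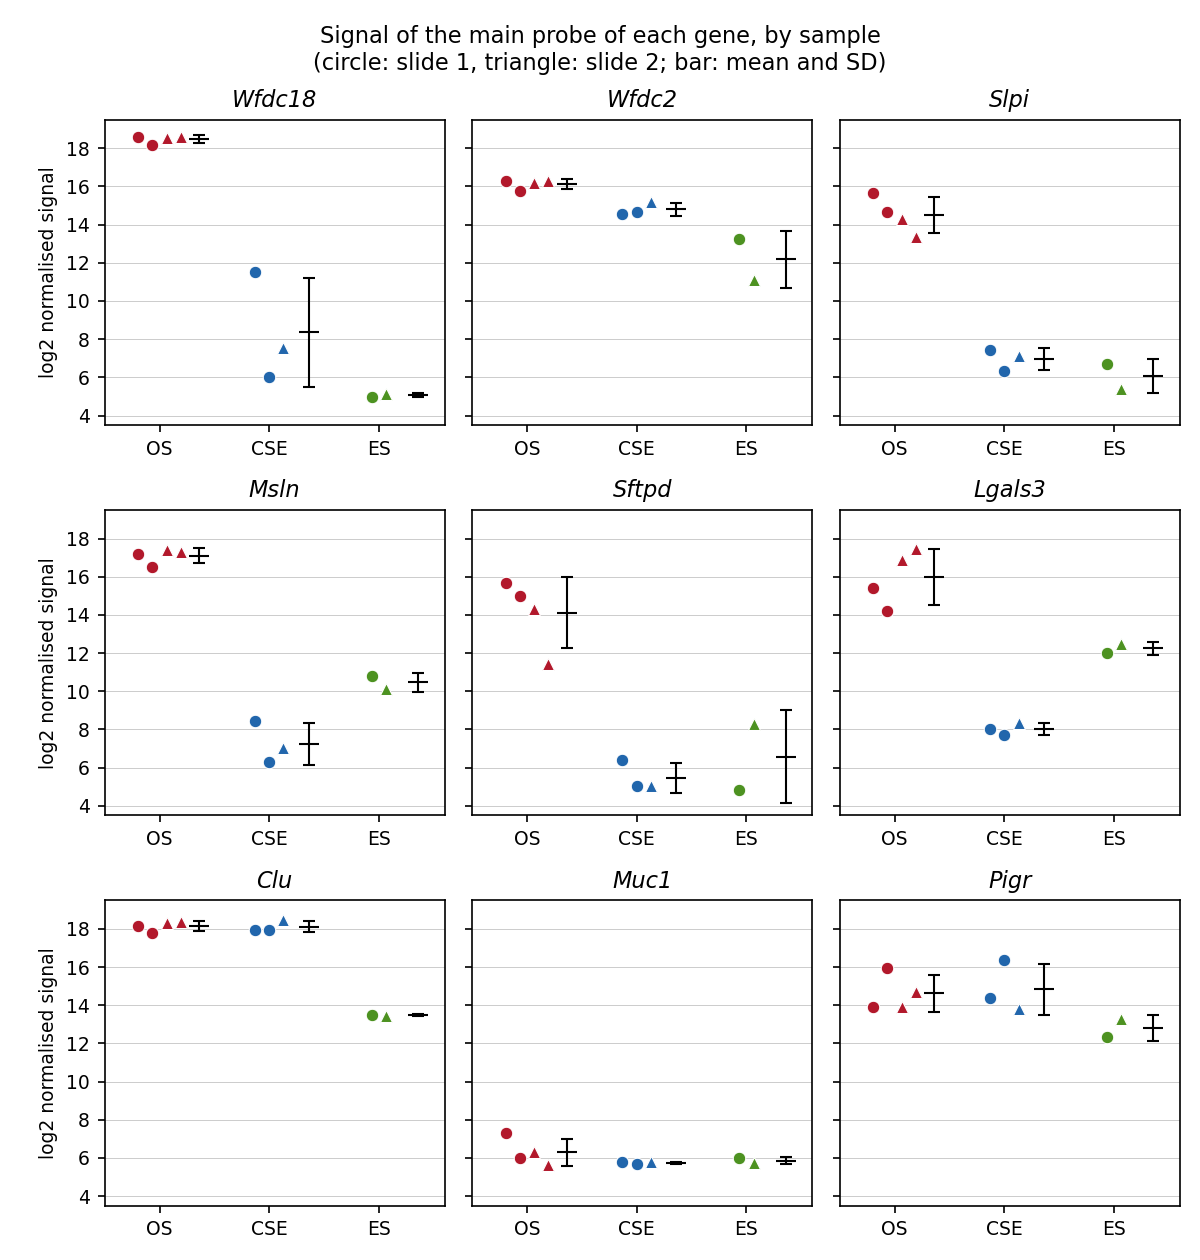
Log2 normalised signal (vertical axis) of the main probe of each gene in the 4 OS, 3 CSE and 2 ES samples, with circles for slide 1, triangles for slide 2 and a bar for the group mean and SD. OS lies above CSE without overlap for Wfdc18, Wfdc2, Slpi, Msln, Sftpd and Lgals3, and within the range of CSE or across it for Clu, Muc1 and Pigr.

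The protease inhibitors of the WAP family came first. Wfdc18, a small secreted WAP protein, had a log2 signal of 18.59 in OS1+OS2, 18.15 in OS3, 18.56 in OS4+OS5 and 18.59 in OS6. In CSE it was 11.54, 6.02 and 7.53, and in ES it was 4.99 and 5.13, not well above background on either ES array. All OS samples were high and close to each other, whereas CSE1 stood far above the other two CSE samples. OS exceeded CSE by 10.11 on the log2 scale (SE 1.65, from the SDs of the 4 and 3 samples), a 1105-fold ratio of geometric means, and the difference was 11.70 without CSE1 and 8.94 without CSE2. With the normalisation used here OS was at least 8684-fold higher than ES, as the OS mean over the lowest signal well above background on the ES arrays or the probe's own where that was higher. The measured difference, which is no bound, was 13.42 and ran from 12.40 with an offset of 50 to 16.36 with 75th percentile scaling. The OS values sit at the top of the scale: Wfdc18 had the highest gene signal on OS1, OS2, OS3 and OS6 and the second highest on OS4 and OS5, so differences among OS samples are compressed there.

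Slpi encodes the secretory leukocyte protease inhibitor, which blocks neutrophil elastase in mucus and saliva. Its signal was 15.65 in OS1+OS2, 14.65 in OS3, 14.29 in OS4+OS5 and 13.35 in OS6, against 7.42, 6.33 and 7.13 in CSE and 6.68 and 5.41 in ES. The lowest OS sample stood 5.93 above the highest CSE sample. OS exceeded CSE by 7.53 (SE 0.58, 185-fold) and ES by 8.44 (SE 0.79, 347-fold; 9.07 without ES1 and 7.81 without ES2), with 1 of the 2 ES arrays well above background.

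Wfdc2 (HE4), a WAP protein of airway and reproductive tract epithelium, showed a far smaller difference from a CSE level that was itself high. Its main probe read 16.26, 15.75, 16.20 and 16.30 in OS, 14.55, 14.64 and 15.21 in CSE and 13.23 and 11.12 in ES. OS exceeded CSE by 1.33 (SE 0.24, 2.51-fold) and ES by 3.95 (SE 1.06, 15.5-fold; 5.01 without ES1 and 2.90 without ES2). The second probe gave 1.24 and 3.48 for the same differences. The groups did not overlap, but the highest CSE sample came within 0.54 of the lowest OS sample.

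The cell surface proteins split. Msln encodes mesothelin, a lipid-anchored glycoprotein of mesothelium and of some epithelia, whose known binding partner is the mucin MUC16. Its signal was 17.20, 16.53, 17.38 and 17.32 in OS, 8.42, 6.29 and 7.02 in CSE, and 10.81 and 10.12 in ES. OS exceeded CSE by 9.86 (SE 0.65, 932-fold; 10.45 without CSE1) and ES by 6.64 (SE 0.40, 99.9-fold). ES lay between the other two groups without touching either. Muc1 encodes a membrane mucin of secretory epithelia and stayed near background throughout, at 7.28, 5.99, 6.30 and 5.64 in OS, 5.80, 5.69 and 5.78 in CSE and 5.99 and 5.71 in ES. It was well above background on 5 of 6 OS, 3 of 3 CSE and 1 of 2 ES arrays. The difference was 0.55 (SE 0.35) from CSE and 0.45 (SE 0.38) from ES, and OS6 was the lowest of all 9 samples.

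Of the lectins, Sftpd encodes surfactant protein D, a collectin of lung and other mucosae that binds microbial sugars. Its main probe read 15.65 in OS1+OS2, 15.00 in OS3, 14.32 in OS4+OS5 and 11.44 in OS6, against 6.38, 5.02 and 5.03 in CSE and 4.84 and 8.29 in ES. It was well above background on all OS arrays but on 1 of 3 CSE and 1 of 2 ES arrays. OS exceeded CSE by 8.63 (SE 1.03, 395-fold; 9.51 without OS6) and ES by 7.54 (SE 1.96, 186-fold; 9.26 without ES2, 5.81 without ES1 and 8.42 without OS6). The second probe showed the same order of OS samples, at 13.73, 13.03, 12.02 and 9.35, and differences of 5.73 and 5.38.

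Lgals3 encodes galectin-3, which binds galactosides on mucins and other glycoproteins and is made by epithelial cells and macrophages. Its signal was 15.41 in OS1+OS2, 14.22 in OS3, 16.88 in OS4+OS5 and 17.45 in OS6, against 8.04, 7.71 and 8.34 in CSE and 12.01 and 12.48 in ES. OS exceeded CSE by 7.96 (SE 0.75, 249-fold; 8.55 without OS3) and ES by 3.75 (SE 0.77, 13.4-fold; 4.34 without OS3). OS3, the lowest, was still 5.88 above the highest CSE sample.

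Clu encodes clusterin, a secreted chaperone of many epithelial fluids, and was as high in CSE as in OS. It read 18.13, 17.77, 18.32 and 18.37 in OS and 17.96, 17.95 and 18.44 in CSE, and 13.50 and 13.44 in ES. OS minus CSE was 0.03 (SE 0.21) with overlapping samples, and OS minus ES was 4.68 (SE 0.14, 25.6-fold). On the OS and CSE arrays Clu ranked between 5 and 18 from the top of all gene probes, so this comparison too lies at the compressed end of the scale.

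Pigr, the polymeric immunoglobulin receptor, was measured by 2 probes that disagreed. The main probe read 13.91, 15.97, 13.89 and 14.72 in OS, 14.37, 16.35 and 13.80 in CSE and 12.32 and 13.28 in ES. By it OS minus CSE was -0.22 (SE 0.91) with overlapping samples, or 0.53 without CSE2, and OS minus ES was 1.82 (SE 0.69, 3.53-fold). The other probe read 8.21 in OS1+OS2, 7.92 in OS3, 5.97 in OS4+OS5 and 5.19 in OS6, and lay between 4.74 and 5.03 in CSE and ES, not well above background on any of those 5 arrays. It was well above background on 5 of 6 OS arrays and at least 3.24-fold higher in OS than in CSE and 2.70-fold higher than in ES. Which of them follows the Pigr transcript was not tested.

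**Figure D2:**
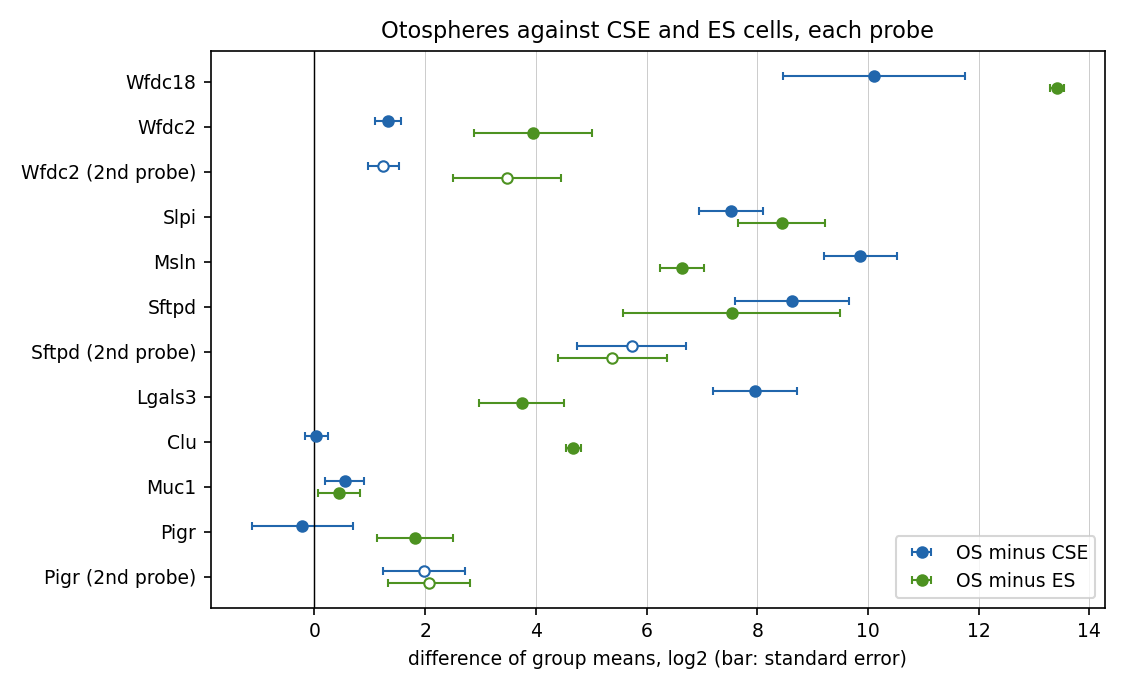
Difference of group means on the log2 scale (horizontal axis) for OS minus CSE (blue) and OS minus ES (green), with standard errors, for the 9 main probes (filled) and the 3 second probes (open). Both probes of Wfdc2 and of Sftpd give the same direction, at 1.33 and 1.24 and at 8.63 and 5.73 for OS minus CSE, while those of Pigr give -0.22 and, for the dimmer probe, a value above 0.

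The 2 reference groups were also compared with each other. The otosphere signal that chose the genes was seen against CSE, so the choice may have favoured low CSE values. The counts and p-values of CSE minus ES are therefore a description. In limma, 2 of the 9 genes were higher in CSE and 2 were lower at an adjusted p under 0.05, beside 13.2% and 15.6% of all kept probes. Clu was higher in CSE by 4.65 (SE 0.24, adjusted p = 5.07e-06) and Wfdc2 by 2.62 (SE 0.53, adjusted p = 0.00549; 3.68 without ES1 and 1.57 without ES2). Lgals3 was lower in CSE by a difference of -4.21 (SE 0.81, adjusted p = 0.00446) and Msln by -3.22 (SE 0.56, adjusted p = 0.00257; -3.81 without CSE1). Thus Msln and Lgals3 had their lowest levels in the tissue from which the spheres were grown, and Clu and Wfdc2 had their lowest in ES. Wfdc18 (3.31, adjusted p = 0.0838), Slpi (0.91, adjusted p = 0.349), Sftpd (-1.09, adjusted p = 0.601), Muc1 (-0.10, adjusted p = 0.902) and Pigr (2.04, adjusted p = 0.101) did not pass. Wfdc18 in this comparison passed when CSE1 or CSE2 was left out, with adjusted p-values of 0.0283 and 0.0158, and over all alternatives its adjusted p ran from 0.0107 to 0.226.

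Within OS the genes differed in their spread. The median SD among the 4 OS samples was 0.71 over the 9 genes and 0.27 over all kept probes. Above the latter lay 7 of the 9 genes, Clu only just. By SD, the main probes of Sftpd, Lgals3, Pigr, Slpi and Muc1 ranked between percentiles 90.27 and 99.29 of all kept probes. Msln stood at 71.45, Clu at 51.48, Wfdc2 at 47.05 and Wfdc18 at 37.53. The kept probes were not matched to the genes for brightness. The range among OS samples was 18.5-fold for Sftpd, 9.39-fold for Lgals3, 4.93-fold for Slpi, 4.24-fold for the main probe of Pigr and 3.11-fold for Muc1. It was 1.8-fold or less for Msln, Wfdc18, Wfdc2 and Clu. Wfdc18 and Clu lie at the compressed end of the scale, so their spread is understated there. With the processed signal scaled to the 75th percentile, Wfdc18 ran from 8.64 to 9.98 and Clu from 8.07 to 9.44 over the OS arrays. Slpi, Sftpd and the dimmer Pigr probe ran in the same order, highest in OS1+OS2 and lowest in OS6, whereas Lgals3 was highest in OS6 and lowest in OS3. OS3 was the lowest OS sample for 5 of the 9 genes and OS6 for 3, where they were the lowest for 39% and 23.9% of all kept probes. With the processed signal scaled to the 75th percentile OS3 was the lowest for 3 genes, since it became the highest OS sample for Wfdc18 and Clu, and OS6 was still the lowest for 3.

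**Figure D3:**
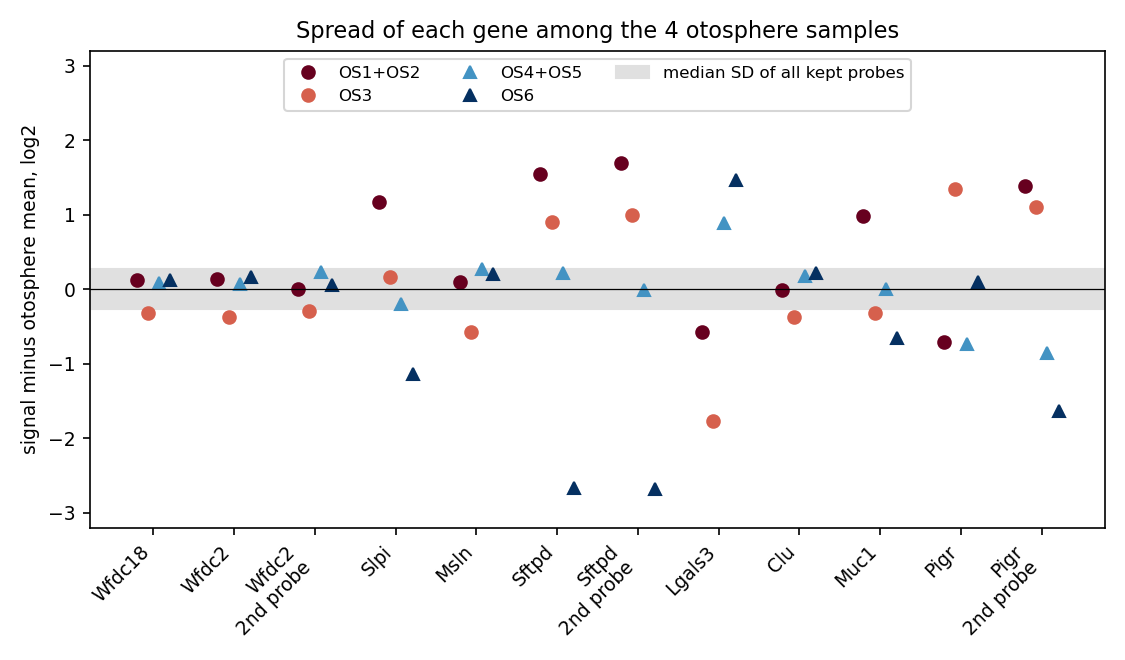
Signal of each OS sample minus the OS mean (vertical axis, log2) for the 12 probes, with circles for slide 1, triangles for slide 2 and a grey band of the median SD over all kept probes, 0.27. Sftpd, Slpi and the second Pigr probe are highest in OS1+OS2 and lowest in OS6, while Lgals3 is highest in OS6 and lowest in OS3.

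OS of slide 2 and OS of slide 1 were compared directly, with CSE and ES in the fit, and slide and scan day fell together. None of the 9 main probes passed (limma, adjusted p under 0.05), beside 0.0771% of all kept probes, and 2 had an unadjusted p under 0.05. These were Lgals3, with slide 2 higher by 2.35 (SE 0.42, adjusted p = 0.0779), and Slpi, with a difference of -1.33 (SE 0.57, adjusted p = 0.443). Lgals3 passed, as 1 of the 9, when every array was taken as a separate sample (adjusted p = 0.0105) and when OS1 and OS2 were left out (adjusted p = 0.0302). Of the other probes, the dimmer one of Pigr passed, with a difference of -2.49 (SE 0.28, adjusted p = 0.043), and the dimmer one of Sftpd gave -2.69 (SE 0.74, adjusted p = 0.171). Both OS samples of slide 1 lay above both of slide 2 for 2 of the 9 genes (17.5% of all kept probes) and below them for 3 (27.8%). Within slide 1, OS minus CSE of the 6 genes that did not overlap ran from 1.41 (Wfdc2) to 9.62 (Sftpd). Within slide 2, where CSE3 is the only CSE array, it ran from 1.04 (Wfdc2) to 11.04 (Wfdc18). For genes with every OS sample above every CSE sample these values had to be positive, so they do not test slide. With slide as a block the median over the 9 genes was 7.67.

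Relatives of the 9 genes were then taken from lists by family and role, again with earlier results of these arrays known, so their counts are a description. Of 103 listed genes 97 had a probe and 93 were tested. In OS against CSE 16 were higher (17.2% of those tested) and 3 lower in limma, beside 4.84% and 6.19% of all kept probes. The median difference over the lists was 0.20. The count of higher genes depended on which samples were in the fit. It fell to 6 without OS4 and OS5 and to 8 without OS1 and OS2, each pair being 1 sample. Without CSE1 or CSE2 it fell to 7, and without CSE3 to 10, while leaving out some other sample raised it. The count of lower genes was 1 without CSE1 and 6 without OS3. Against ES, 25 were higher and 8 lower, beside 12.1% and 15.6%.

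No shared shift of the WAP family was seen, though part of it was too dim to show one. Of 18 other members, 5 were not well above background on any OS array, and 2 of these on no array of any group. None of the 18 passed as higher in OS than CSE and 1, Wfdc1, was lower, by -0.93 (limma, adjusted p = 0.0216). Most of these genes sit in a cluster on chromosome 2, which carries 16 of the 21 WAP genes considered, Slpi and Wfdc2 among them, and Wfdc18 lies on chromosome 11 between Wfdc17 and Wfdc21. Its neighbour Wfdc17 read 8.04, 8.89, 7.05 and 5.39 in OS and 5.07, 5.19 and 5.03 in CSE, and no CSE array had it well above background. That put OS at least 4.47-fold higher, with an adjusted p of 0.075 in limma, short of the threshold.

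Of 24 other secreted defence proteins tested, 7 were higher in OS than CSE (29.2%, beside 4.84% of all kept probes) and none passed as lower. The median difference over this list was 0.27. Lcn2, lipocalin-2, which withholds iron from bacteria, read 18.33, 18.09, 18.14 and 13.78 in OS and 9.97, 6.92 and 7.20 in CSE, a difference of 9.06 (adjusted p = 0.00181, limma). Cst6, cystatin M, an inhibitor of cysteine proteases, rose by 7.19 (adjusted p = 0.000134) and was highest in OS6, at 17.42. Reg3g, an antibacterial lectin of gut and airway, read 12.22, 13.72, 10.10 and 6.08 in OS and was not well above background on any CSE array, at least 40.8-fold below OS (adjusted p = 0.0444). Ltf, lactoferrin, rose by 4.96 (adjusted p = 0.000134) and C3, the central complement protein, by 4.38 (adjusted p = 0.0379). Bpifa1, an abundant airway protein, rose by 3.12 (adjusted p = 0.00904) and Lpo, lactoperoxidase, by 0.96 (adjusted p = 0.0212). OS6 was the lowest OS sample for 6 of these 7, all but Cst6, and for 14 of the 24 genes tested (58.3%, against 23.9% of all kept probes).

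Among the mucosal genes that did not pass, Scgb1a1, the secretoglobin of airway club cells, had a difference of 0.18 (adjusted p = 0.691). Differences below 0 in the defence list included S100a9 at -1.90, Agr2 at -1.78 and Lyz1 at -1.47 (limma, adjusted p = 0.282, 0.111 and 0.407). Those above 0 that did not pass included Chil1 at 3.23, Camp at 3.22 and Pglyrp1 at 2.18 (limma, adjusted p = 0.157, 0.0879 and 0.0648). None of 7 mucins passed: Muc4 was at -0.05 and Muc5b at -0.31. None of the 5 other surfactant proteins and collectins tested passed either, and Sftpb was not well above background on any of the 11 arrays, while Sftpa1 and Sftpc were too dim to be tested. Beside Lgals3, of 7 galectins Lgals1 was higher in OS by 1.1 (adjusted p = 0.0328) and Lgals7, a galectin of stratified epithelium, was lower, at -1.91 (adjusted p = 0.00321).

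Of 15 binding partners and relatives, 2 were higher in OS than CSE (13.3%) and 1 lower, beside 4.84% and 6.19% of all kept probes. Lgals3bp, a secreted ligand of galectin-3, rose by 1.34 (adjusted p = 0.0386) and Egfr, the receptor of epidermal growth factor, by 1.67 (adjusted p = 0.0203). Lrp2, megalin, an endocytic receptor that takes up clusterin, was lower, at -1.14 (adjusted p = 0.0119). Mslnl, Elane and Jchain were in the list and did not pass. Elane, neutrophil elastase, the protease that SLPI blocks, had a difference of 0.21 (limma, adjusted p = 0.898), and its mean was 10.11 in ES as in OS.

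Of 17 transcription factors of secretory epithelium, 6 were higher in OS than CSE (35.3%, beside 4.84% of all kept probes) and none lower. The C/EBP factors Cebpd and Cebpb, which act in acute phase and mucosal gene expression, rose by 3.69 (adjusted p = 0.0253) and 3.30 (adjusted p = 0.000999). Elf3, an epithelial ETS factor, read 9.49, 9.16, 9.97 and 9.96 in OS and 6.69, 5.82 and 6.92 in CSE, a rise of 3.17 (adjusted p = 0.000419). Klf5 rose by 2.36 (adjusted p = 0.0291), Nfkbiz, a partner of NF-kB, by 1.41 (adjusted p = 0.0423) and Grhl1 by 1.25 (adjusted p = 0.0449). Klf5 was higher in both ES samples, at 12.72 and 12.78, than in any OS sample. Elf3 and Grhl1, with ES means of 8.98 and 9.32, did not pass in OS against ES (limma, adjusted p = 0.204 and 0.208). Cebpb, Cebpd and Nfkbiz were higher in OS than in ES (limma, adjusted p = 0.000794, 0.0364 and 0.0138). Ehf and Elf5, with differences of 1.71 and 1.87, had adjusted p-values of 0.0598 and 0.078.

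**Figure D4:**
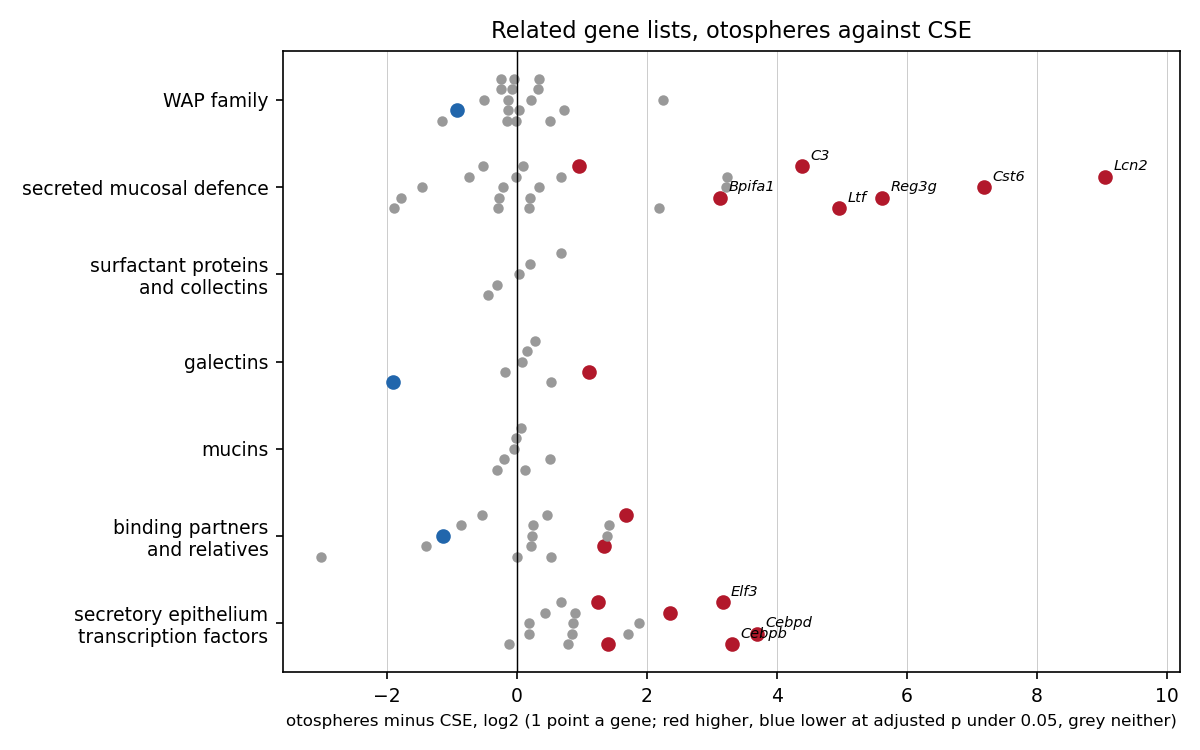
OS minus CSE on the log2 scale (horizontal axis) for the 93 tested genes of the 7 related lists, 1 point each, red where higher and blue where lower at an adjusted p under 0.05 and grey where neither. The 16 red points lie mostly in the secreted defence and transcription factor rows, with Lcn2 farthest at 9.06, and the WAP and mucin rows hold none.

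Markers of other cells moved with these genes in part. All 7 epithelial markers (Epcam, Cdh1, Krt7, Krt8, Krt18, Krt19 and Cldn4) were higher in OS than CSE, and their mean log2 signal was 13.63 to 15.12 in OS, 11.09 to 11.71 in CSE and 11.48 to 12.53 in ES. Krt7, a keratin of simple and glandular epithelium, rose by 5.74 (adjusted p = 0.00024, limma). The part of these levels in the results above was not tested. For Msln, 1 of 8 mesothelial markers was higher in OS, Krt19, which epithelia share, and the list's mean was 7.33 to 8.08 in OS and 7.07 to 7.27 in CSE. Of these 8, Krt19, Upk1b, Wt1, Gpm6a and Rspo1 were well above background on all 6 OS arrays, Upk3b on 2, and Lrrn4 and Bnc1 on none. Wt1, which no CSE array had well above background, read 5.68, 6.18, 7.31 and 6.16 in OS, at least 2.2-fold higher than CSE (adjusted p = 0.0661, limma), and Upk1b had a difference of 1.45 (adjusted p = 0.147). For Lgals3, 5 of 8 macrophage markers were lower in OS than CSE and none higher, with list means of 7.56 to 8.04 and 9.18 to 9.44. Csf1r, Aif1, C1qb and Itgam were well above background on all 6 OS arrays, Adgre1 and Ptprc on 5, Tyrobp on 1 and C1qa on none, and Itgam was as bright in OS as in CSE (difference 0.02, adjusted p = 0.996). Csf1r, C1qb, Adgre1 and Itgam were also well above background on both ES arrays, with ES means of 11.09, 7.38, 6.30 and 11.81. None of the 8 macrophage markers passed as higher or lower in OS than in ES. For Slpi, Ltf and Lcn2, 1 of 7 neutrophil markers was higher in OS, Ltf itself, with list means of 6.98 to 8.73 and 7.23 to 7.43, and Ngp and Mpo read at most 5.97 in OS. Camp, in the same list, read 12.60, 12.31, 10.85 and 7.63 in OS and 7.56 to 7.76 in CSE (difference 3.22, adjusted p = 0.0879), Elane was well above background on all 6 OS arrays, and S100a8 and S100a9 were on 5. Elane was as bright in ES, with means of 10.11 in ES, 10.11 in OS and 9.90 in CSE, whereas S100a8 and S100a9 were not well above background on any ES array. Of 5 markers of ciliated epithelium, Dnah5 was higher (1.05, adjusted p = 0.0437) and Ccdc39 lower (-1.08, adjusted p = 0.00808).

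**Figure D5:**
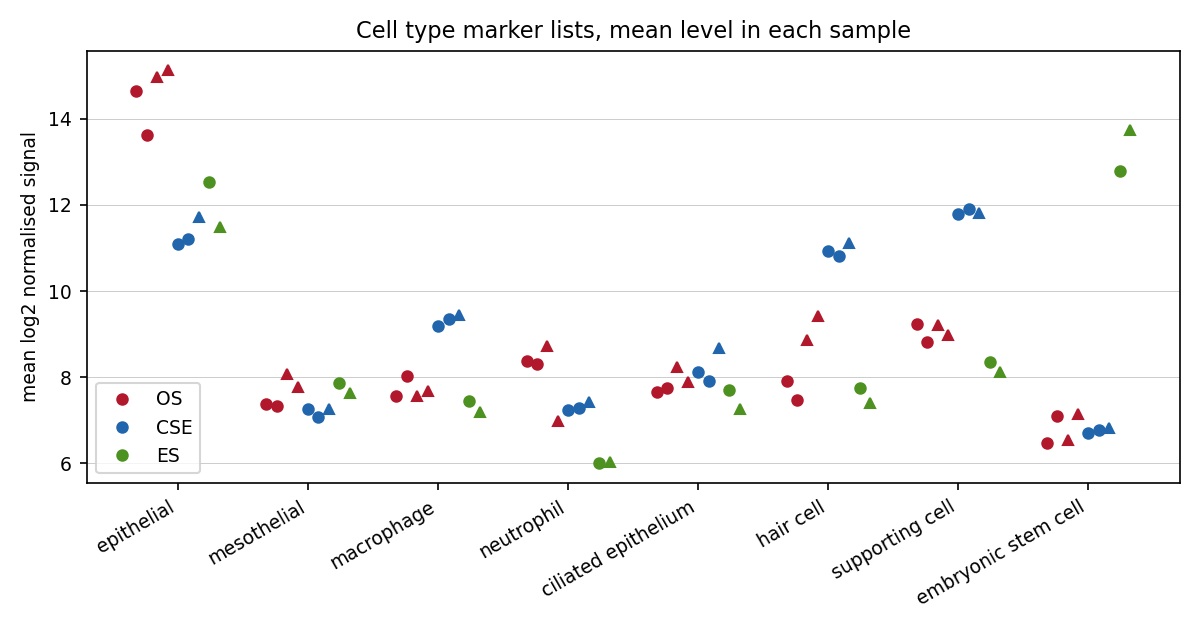
Mean log2 normalised signal (vertical axis) of each marker list in each sample, with circles for slide 1 and triangles for slide 2. The epithelial list lies higher in OS, at 13.63 to 15.12, than in CSE, at 11.09 to 11.71, the hair cell, supporting cell and macrophage lists lie lower, and the mesothelial list stays below 8.1 in all groups.

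The genes whose profile was most like the mean of the 9 were sought among 18556 other named genes, by the root mean square difference between profiles centred over the 9 samples, in log2 units. Serpinb1c, of the clade B serine protease inhibitors, was nearest, at 0.33, followed by Ltf at 0.53 and the membrane protein Mal2 at 0.54. Further genes among the 10 nearest were Serpinb6b (0.57), Aqp5, the water channel of glands (0.61), Osmr, the oncostatin M receptor (0.64), Serpinb1a (0.67), Acox2 (0.69) and the AP-1 subunit Fosl2 (0.70). Serpinb1a had a mean of 15.65 in OS, 10.33 in CSE and 8.72 in ES, and Aqp5 one of 13.43, 9.18 and 8.43. Of the 9 genes themselves Slpi lay nearest to their mean profile (1.41) and Wfdc18 farthest (3.40).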

How the data were processed

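The authors deposited scanner files from Feature Extraction 10.7.3.1, with, for every spot, the median intensity of the signal and of the background around it on a linear scale, a processed intensity, and flags. They also deposited a table of log2 values, background-corrected and quantile-normalised with limma and filtered on dim probes, which was used as an alternative only.

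Here the median intensity was corrected by normexp with an offset of 16 (limma 3.58.1, R 4.3.3), taken to log2 and quantile-normalised over the 11 arrays. Control spots and spots flagged as outliers were dropped, and repeated spots were averaged per probe. A probe was kept when at least 2 arrays had it more than 10% above the 95th percentile of the 308 negative controls, which left 47996 of 55681, of which 24478 had a gene name. Quantile normalisation gives every array the same distribution, so the highest signals share a ceiling. The number of arrays limits the precision.

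Arrays were grouped by their labels. A limma model with a mean per group over 9 samples gave the differences and adjusted p-values (Benjamini-Hochberg over the kept probes, threshold 0.05), and the test was checked on simulated data. A second model split OS by slide. Alternatives were the offset, 75th percentile scaling of the processed intensity, the authors' log2 table, the filter, every array separate, slide or replicate block, the mean over probes, and leaving out each sample. The 9 genes and all lists were chosen with earlier results of these data known, as were the rules that name up to 5 called genes of each list and the 10 most similar profiles, of which 1 is not reported here.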

Additional observations from a re-analysis of the deposited data

Results flagged for a closer look

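Wfdc18 in OS3, at 18.15, stood apart from the other 3 OS samples, at 18.56 to 18.59, by more than Dixon's limit for 4 samples. On OS3 this was also the highest gene signal of the array, and with the processed signal scaled to the 75th percentile OS3 was the highest of the OS arrays instead, at 9.98 against 8.64 to 9.95. Wfdc2 in OS3, at 15.75, likewise stood apart from the others, at 16.20 to 16.30, and remained the lowest OS array under that scaling, at 6.59 against 6.80 to 7.19. Chance flags about 1 in 20 groups.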

How the results depend on the processing

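The 6 genes without overlap between OS and CSE kept a positive OS minus CSE under all 20 alternatives. Leaving out samples could not change that sign, as every OS sample of these genes lay above every CSE sample. The median over the 9 genes ran from 6.79 to 7.76. OS minus CSE of Clu ran from -0.16 to 0.20 and that of Pigr from -0.74 to 0.88, the latter with both probes averaged. The median of OS minus ES was 4.12 with 75th percentile scaling, and 4.61 to 5.01 with single samples left out. Under that scaling Sftpd reached 10.92 for OS minus CSE, and Wfdc2 lost its CSE minus ES call (1.86, adjusted p = 0.0617, over a range of 0.000266 to 0.0617). Its Wfdc18 counterpart passed in 6 alternatives. The calls for Clu, Msln and Lgals3 held in every alternative. CSE minus ES changed sign, without passing, for Muc1 (0.11 under the replicate block, and -0.23 to 0.043 with single samples left out) and Sftpd (-2.82 to 0.64).

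Among related genes, OS minus CSE gave 25 higher and 6 lower with every array separate, 6 lower with the replicate block and 5 lower without the OS arrays of slide 2, which was added after seeing the data. OS minus ES gave 5 lower with an offset of 50, 2 with the replicate block and 5 without the OS arrays of slide 2. With single samples left out the counts ran from 6 to 21 higher (7 without CSE1 or CSE2, 8 without OS1 and OS2) and 1 to 6 lower for OS minus CSE, and 5 to 8 lower for OS minus ES. The slide comparison of OS called 1 of the 9 genes with every array separate and 0 to 1 with samples left out. Same-numbered arrays did not deviate together (correlations from -0.39 to 0.36), so the replicate numbers were not taken as pairs. The causes of these changes were not tested.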
